A study of Glycine max with 16 samples.

Results

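LEC1 regions were examined in the middle of the soybean chromosomes, between 40 and 60% of the length of each. They were obtained by merging the peaks of 3 embryo stages wherever they shared at least 1 bp, and a region was counted as central when its midpoint lay within those limits, a window called the central segment here. Of 78360 merged regions on the 20 chromosomes, 4765 were central. A chromosome was taken to end where its last peak ended in any of the 4 lists. Nearest to the lower limit were chr6:20530501-20530900 inside and chr6:20524001-20524400 outside. Nearest to the upper limit were chr13:27491451-27491850 inside and chr13:27493651-27493900 outside. All positions are 1-based on the Gmax275 build, which the peak names give.

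The data come from chromatin immunoprecipitation and sequencing (ChIP-seq) of Glycine max embryos, cultivar Williams 82, with 8 ChIP libraries and 8 libraries of input chromatin, 2 biological replicates in each of 8 groups. An antibody against recombinant GmLEC1 was used on embryos at the cotyledon stage (COT), at early maturation (EM) and at mid-maturation (MM). An antibody against a GmLEC1 peptide was used on early maturation embryos. The labels name no mutation, transgene or treatment. An embryo holds several cell types, which a peak list does not separate. Each stage and antibody is represented by 1 peak list, so no spread between replicates and no test between stages could be given, and the read depth behind a list is unknown. Ranges in brackets are exact binomial (Clopper-Pearson) 95% intervals, which cover counting error only. They count each region as independent, so intervals that do not overlap are no test between parts.

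LEAFY COTYLEDON1 is an NF-YB protein made in seeds, and joins NF-YC and NF-YA partners to bind CCAAT sequences. It acts in embryo morphogenesis and later in the filling of the seed with storage protein and oil, where B3-domain and bZIP transcription factors act with it. The middle of most soybean chromosomes lies in pericentromeric heterochromatin, which is rich in repeats, poor in genes and low in recombination, while genes are concentrated in the arms. Genes, repeats and mappable sequence along the chromosomes were not measured here, their part in the densities was not tested, and no sequence or gene could be assigned to a region, because no genome or annotation of the Gmax275 build was used here.

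LEC1 regions were sparse in the central segment. It held 6.08% of all regions on 20% of the length, or 25.1 regions per Mb, against 97.0 per Mb in the rest of the chromosomes. The ratio of these densities was 0.259 (0.252 to 0.266, Poisson interval of the central count). Central regions covered 0.891% of their sequence, against 3.52% elsewhere. Pooled over the 20 chromosomes, density fell from the ends inwards. The neighbouring segments, from 20 to 40% and from 60 to 80% of the length, held 52.8 regions per Mb. The outer segments held 141 per Mb. Central density was lower than that of the rest on 19 of 20 chromosomes and higher on 1, chromosome 13.

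**Figure D1:**
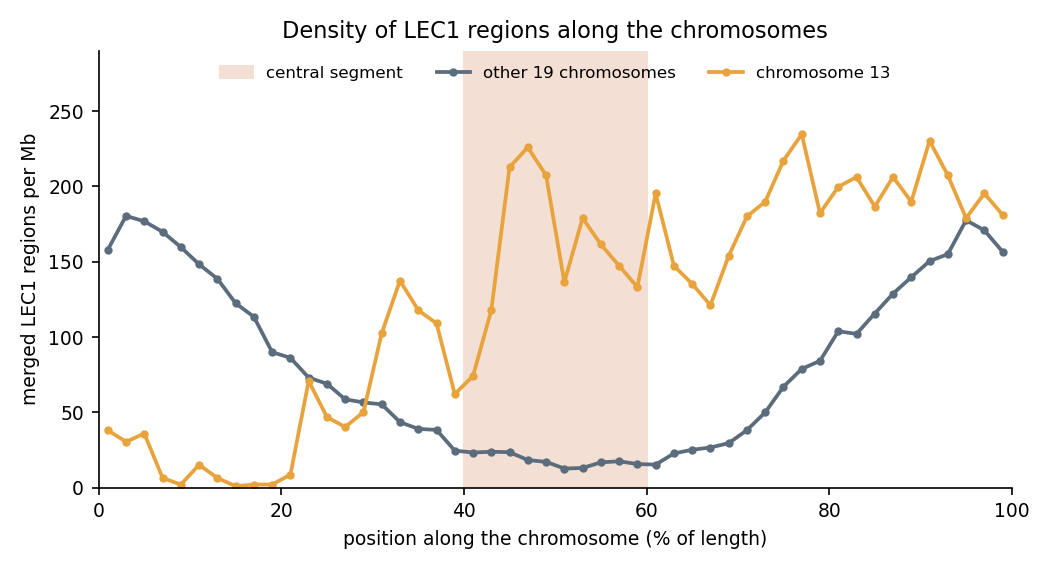
Merged LEC1 regions per Mb (y axis) in steps of 2% of the chromosome length (x axis), for chromosome 13 and for the other 19 chromosomes as 1 set, with the central segment shaded. The 19 chromosomes fell to 12.8 per Mb at 50 to 52% of the length, while chromosome 13 had its lowest value, 1.09 per Mb, at 14 to 16%.

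The central segment of chromosome 13 held 1462 regions, 30.7% of all central ones, although 7.28% of all regions lay on that chromosome. Its density was 159.5 per Mb in the central segment, against 115.6 per Mb in the rest of chromosome 13, a ratio of 1.38. Inside it, the 4 bins of 5% of the length had 112, 223, 155 and 148 regions per Mb from 40% onwards. Its sparse part lay near its start, where the bin from 15 to 20% had 2.18 regions per Mb. Because so many central regions lie on this chromosome, the main shares and distances are also given without it below. The other 19 chromosomes held 3303 central regions at 18.3 per Mb, against 96.1 per Mb in their rest, a ratio of 0.190. Their neighbouring segments had 49.2 per Mb.

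Over all 20 chromosomes, the lowest central density was 7.16 per Mb, on chromosome 4, the median 17.5 per Mb and the highest 159.5 per Mb. In the rest the corresponding densities were 74.9, 94.7 and 129 per Mb. Chromosome 13 was the single chromosome whose central density reached the range of the rest. The next highest central densities, 36.7 per Mb on chromosome 8 and 34.1 per Mb on chromosome 11, were below the lowest value of the rest. The mean was 25.7 ± 32.3 per Mb for the central segments and 98.1 ± 15.9 per Mb for the rest (SD, n = 20 chromosomes). Without chromosome 13 it was 18.7 ± 7.29 per Mb for the central segments and 97.2 ± 15.8 per Mb for the rest (SD, n = 19 chromosomes).

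**Figure D2:**
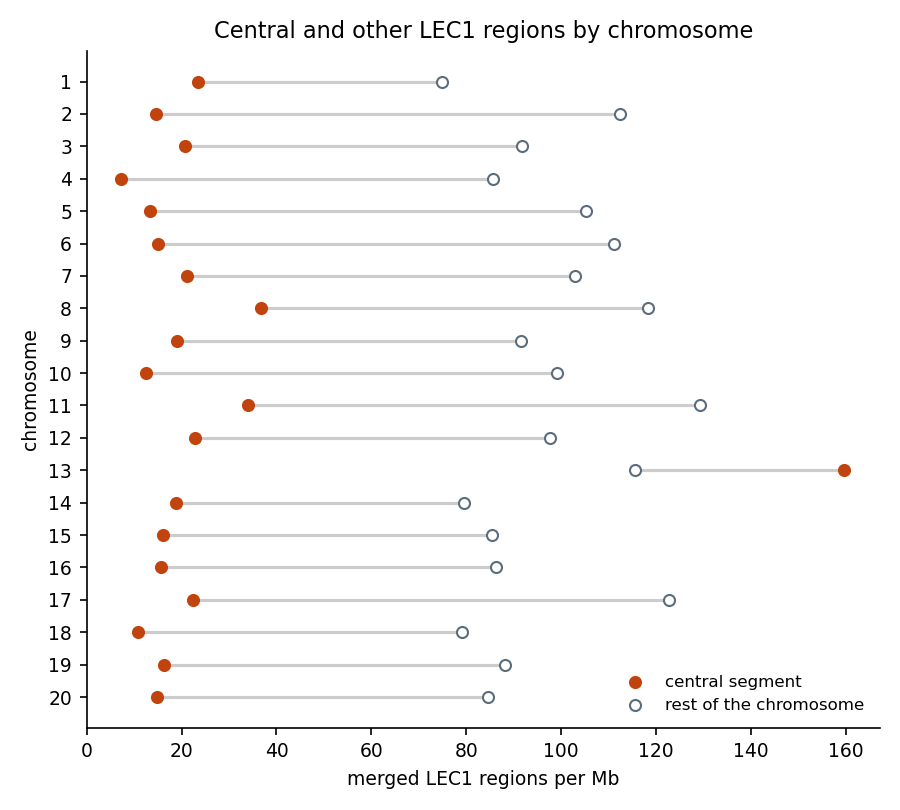
Merged LEC1 regions per Mb (x axis) in the central segment (filled points) and in the rest (open points) of each chromosome (y axis). The central point lies left of the open one on 19 chromosomes and right of it on chromosome 13, at 159.5 against 115.6 per Mb.

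Density also varied inside the central segment. When each was cut into 4 bins of 5% of the length, the densest bin held 1.8 to 15.6 times as many regions per Mb as the sparsest, with a median of 5.24 times. On chromosome 8 the bin from 45 to 50% had 72.0 regions per Mb and the bin from 55 to 60% had 4.60. On chromosome 17 the bin from 45 to 50% had 32.2 per Mb and the next, from 50 to 55%, had 2.40. Chromosome 4 was the most even, at 5.73 to 10.3 per Mb. The sparsest 5% bin of the whole chromosome was central on 11 of 20 chromosomes, lay below 40% of the length on 5 and above 60% on 4. The middle by length was not always the sparsest stretch. On chromosome 1 the sparsest was the bin from 25 to 30% (4.58 per Mb), and on chromosome 20 the bin from 30 to 35% (2.92 per Mb).

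Central regions were farther from their neighbours, and most of all in the upper tail of distances. The median distance from a region to its nearest neighbour, edge to edge, was 1650 bp for central regions and 1350 bp for the rest, while the mean was 13575 bp for central regions and 3709 bp for the rest. A neighbour within 1 kb was found for 1874 central regions, or 39.3% (37.9 to 40.7), and for 42.3% (41.96 to 42.7) of the rest. Over all regions this share was 42.1%, and in the neighbouring segments it was 39.2% (38.5 to 39.8). At the other end, 142 central regions (2.98%) had no neighbour within 100 kb, against 153 of the rest (0.208%). In between, the nearest region was 1 to 10 kb away for 2017 central regions, or 42.3%, against 50.8% of the rest and 50.3% over all. It was 10 to 100 kb away for 732 central regions, or 15.4%, against 6.64% of the rest and 7.17% over all.

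Chromosome 13 and the other chromosomes differed in this too. On the other 19 chromosomes the median nearest distance of central regions was 1900 bp, against 1350 bp in their rest, and 36.4% (34.7 to 38.0) had a neighbour within 1 kb, against 42.3% (41.9 to 42.7) in their rest. In the neighbouring segments of those chromosomes the share was 38.8% (38.1 to 39.5). In the central segment of chromosome 13 the median nearest distance was 1200 bp and 46.0% (43.5 to 48.6) of regions had a neighbour within 1 kb. The longest nearest distance there was 44350 bp, and all 142 regions without a neighbour in 100 kb lay on the other 19 chromosomes. By chromosome, the median nearest distance was longer for central regions than for the rest on 18 of 20. It was shorter on chromosome 13 and on chromosome 18, and on chromosome 18 it was 1375 bp for central regions and 1600 bp for the rest.

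**Figure D3:**
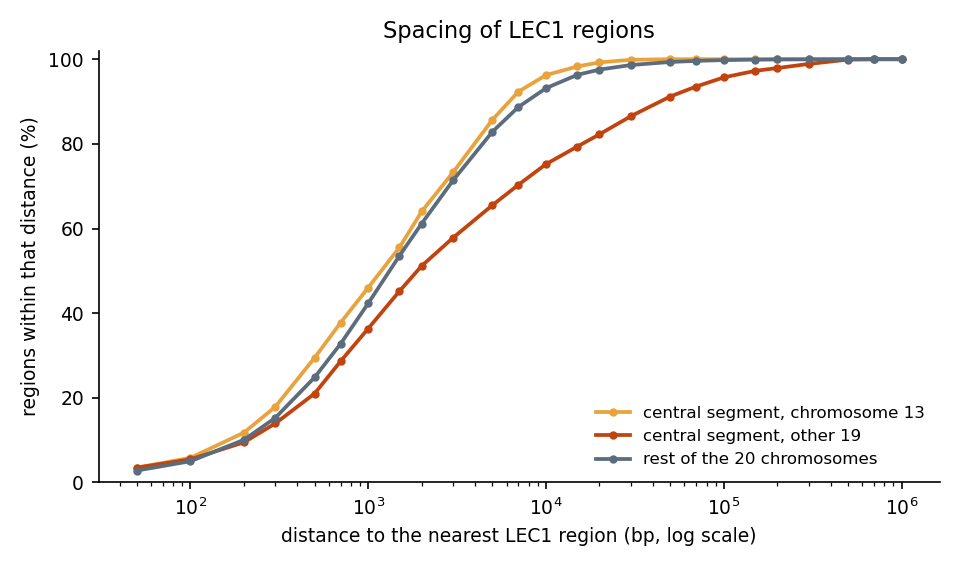
Cumulative share of regions (y axis, %) whose nearest LEC1 region lies within the distance on the x axis (bp, log scale), for central regions of chromosome 13, central regions of the other 19 chromosomes and the rest of all 20 chromosomes. Within 10 kb the shares are 96.2%, 75.2% and 93.2%.

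In windows of 100 kb, 807 of 1898 central windows held no region, or 42.5% (40.3 to 44.8), against 15.9% (15.0 to 16.7) of 7577 windows in the rest. A central window that held any region had a median of 3, against 11 in the rest. On chromosome 13, 0 of 92 central windows were empty (exact upper bound 3.93%), and on the other 19 chromosomes 44.7% were. Stretches of more than 500 kb between neighbouring central regions numbered 45, lay on 17 chromosomes and made up 16.1% of the central sequence, against 60 stretches and 6.21% in the rest. The longest stretch was 1410700 bp in the central segments and 1791300 bp in the rest. The central one ran from 21646901 to 23057600 of chromosome 7; it and the next were picked with their lengths known. The next central ones were on chromosome 4, from 27551551 to 28753750, and on chromosome 9, from 23409051 to 24588700.

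The most isolated central region lay at chr18:33827401-33827700, with 652200 bp to its neighbour before it and 657400 bp to the one after it. It was called at COT and MM, in places 19802 and 27132 by score, and had an anti-peptide peak. The next lay at chr17:21877601-21877750, with 646700 bp to its nearer neighbour. It was 150 bp wide, was called at COT and MM and had no anti-peptide peak. The third lay at chr3:20900501-20900700, 607200 bp from its nearer neighbour, was called at the same 2 stages and had an anti-peptide peak. All 3 were narrower than the median central region.

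The 1874 central regions with a neighbour within 1 kb (39.3%, against 42.3% of the rest) stood in 810 runs with gaps of at most 1 kb. Of these runs, 623 had 2 regions, 138 had 3 and 49 had 4 or more. Run sizes in the rest are not given here. The largest central runs had 7 regions, and there were 2 of them. One lay at chr1:32294651-32301200, a span of 6550 bp. Of its 7 regions, 4 were called at all 3 stages and 7 had an anti-peptide peak, and the best placed, at 32294651 to 32295450, had places 1748 (COT), 1408 (EM) and 3923 (MM). The other began on chromosome 13 at 20454001 and ended at 20459300. It also had 4 regions of all 3 stages, but its last regions, of 100 and 150 bp, touched without overlapping and were called at COT alone and at EM alone.

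Regions without a near neighbour were narrower on average. Central regions with a neighbour within 1 kb were 360 ± 204 bp wide (SD over 1874 regions) and 44.3% of them were called at all 3 stages. Of those with the nearest neighbour 1 to 10 kb away, 46.7% (44.5 to 48.9) were called at all 3 stages. From 10 to 100 kb the width was 340 ± 170 bp (SD over 732 regions) and the share 41.7% (38.1 to 45.3). Beyond 100 kb the width was 319 ± 179 bp (SD over 142 regions) and the share 35.9%, with an interval up to 44.4% that overlapped that of the closest group (42.0 to 46.6). In the rest of the chromosomes mean widths also fell, at 370, 361, 340 and 332 bp in the 4 ranges of distance. The shares called at all 3 stages there were 46.2, 45.8, 42.2 and 39.9%. Central regions of the other 19 chromosomes gave 43.6, 45.0, 41.4 and 35.9%, all of the last range lying there. The share of all central regions with an anti-peptide peak was 57.8, 59.2, 54.2 and 57.0%.

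The stages at which central regions were called resembled those of the rest. Of the central regions, 2127 were called at all 3 stages, 44.6% (43.2 to 46.1), against 45.7% (45.3 to 46.1) in the rest and 45.6% over all regions. This difference of −1.05 percentage points was 0.0425 points once the rest was weighted to the widths of central regions, and 0.566 points in the higher-scoring 50% of each list. A region that joins more stages is wider by construction, so the weighting can itself take out part of a difference in stages. Calls at EM and MM but absent at COT described 674 central regions, 14.1% against 14.5% in the rest and 14.5% over all. Regions of COT and MM without EM numbered 246, or 5.16% against 5.39% in the rest and 5.38% over all, and those of COT and EM without MM 167, or 3.50% against 3.25% in the rest and 3.27% over all. Regions of 1 stage numbered 540 at COT (11.3% against 10.3% in the rest and 10.3% over all), 261 at EM (5.48% against 5.73% in the rest and 5.72% over all) and 750 at MM (15.7% against 15.1% in the rest and 15.2% over all). The intervals of the central segment and the rest overlapped in all 7 classes over the 20 chromosomes, most narrowly for COT alone, at 10.4 to 12.3% of central regions and 10.1 to 10.5% of the rest. Of the 7 classes, COT and EM without MM had the highest share of central regions with a neighbour within 1 kb. It was 50.9% of 167 regions (46.7% in the rest and 47.0% over all). The lowest was COT and MM without EM, at 36.2% of 246 regions (40.4% in the rest and 40.1% over all). MM alone (36.7%) and EM and MM without COT (37.4%) were close to it. In the rest EM alone was highest (48.9%) and MM alone lowest (39.9%). These shares have no intervals, so the order of classes with close shares is not settled. Among 1064 pairs of neighbouring central regions at most 1 kb apart, both were called at all 3 stages in 21.7% and neither in 32.1%, against 22.5 and 29.7% of such pairs in the rest.

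Any call at COT covered 64.6% (63.3 to 66.0) of central regions and 64.6% of the rest, with 64.6% over all regions. At EM it was 67.8% (66.4 to 69.1) of central regions, against 69.2% (68.9 to 69.5) of the rest and 69.1% over all. At MM it was 79.7% (78.5 to 80.8) of central regions, against 80.7% of the rest and 80.7% over all.

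The chromosomes were less uniform in the centre. The share of central regions called at all 3 stages was lowest on chromosome 18, at 34.9% (26.6 to 43.9), had a median of 44.4% and was highest on chromosome 16, at 51.3% (41.9 to 60.5). In the rest of the chromosomes it ran from 43.5 to 48.1%, with a median of 45.6%. It was lower in the central segment than in the rest of the same chromosome on 13 of 20. The mean share was 43.5 ± 4.66% in the central segments and 45.7 ± 1.13% in the rest (SD, n = 20 chromosomes). The mean difference, central minus rest, was −2.14 ± 4.23 percentage points (SD, n = 20 chromosomes). A central segment outside chromosome 13 held 75 to 351 regions, so its counting error was wider than that of the rest.

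Chromosome 13 and the other 19 taken as 1 set also differed in stage classes. Without chromosome 13, 43.4% (41.7 to 45.1) of central regions were called at all 3 stages, against 45.6% (45.3 to 46.0) of the rest of those chromosomes, and the intervals did not overlap. With the rest weighted to central widths, that difference of −2.29 points was −0.924 points, with the same limit, as width depends on the stages joined. The interval of the neighbouring segments of the same chromosomes, at 44.5% (43.8 to 45.3), overlapped that of the central segments. Regions of MM alone made up 16.8% (15.5 to 18.1) of central regions and 15.2% (14.9 to 15.5) of the rest of these 19 chromosomes, and any call at EM covered 66.8% (65.2 to 68.4) of central regions and 69.2% (68.8 to 69.5) of the rest. The intervals did not overlap for either, and they overlapped for the other 5 classes and for any call at COT or at MM. In the neighbouring segments of these chromosomes MM alone made up 16.3% (15.7 to 16.8) and any call at EM covered 68.1% (67.4 to 68.8). Both intervals overlapped those of the central segments. In the central segment of chromosome 13, 47.5% (45.0 to 50.1) of regions were called at all 3 stages. Regions of EM and MM without COT made up 11.4% (9.84 to 13.2) of central regions on chromosome 13 and 15.3% (14.1 to 16.6) on the other 19. On single chromosomes the central share of all 3 stages ran from 34.9 to 51.3%. That of EM and MM without COT ran from 8.90 to 24.1%, so chromosome 13 lay within both ranges. Any call at COT covered 68.8% (66.4 to 71.2) of central regions on chromosome 13 and 62.8% (61.1 to 64.4) on the others. At MM the order was the other way, with 76.7% (74.5 to 78.9) on chromosome 13 and 81.0% (79.6 to 82.3) on the others. Among single chromosomes, the central share called at COT was higher on chromosome 3 than on chromosome 13. The central share called at MM was lower on chromosome 7. Chromosome 13 thus lay within the range of single chromosomes for both calls. In the rest of chromosome 13 a call at MM covered 80.7% (79.5 to 81.9), an interval apart from that of its central segment. For the other 3 shares the intervals of its central segment and its rest overlapped: in the rest, 46.4% (44.9 to 47.9) were called at all 3 stages, 14.0% (12.98 to 15.1) at EM and MM without COT, and 66.5% (65.01 to 67.9) at COT in any combination.

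**Figure D4:**
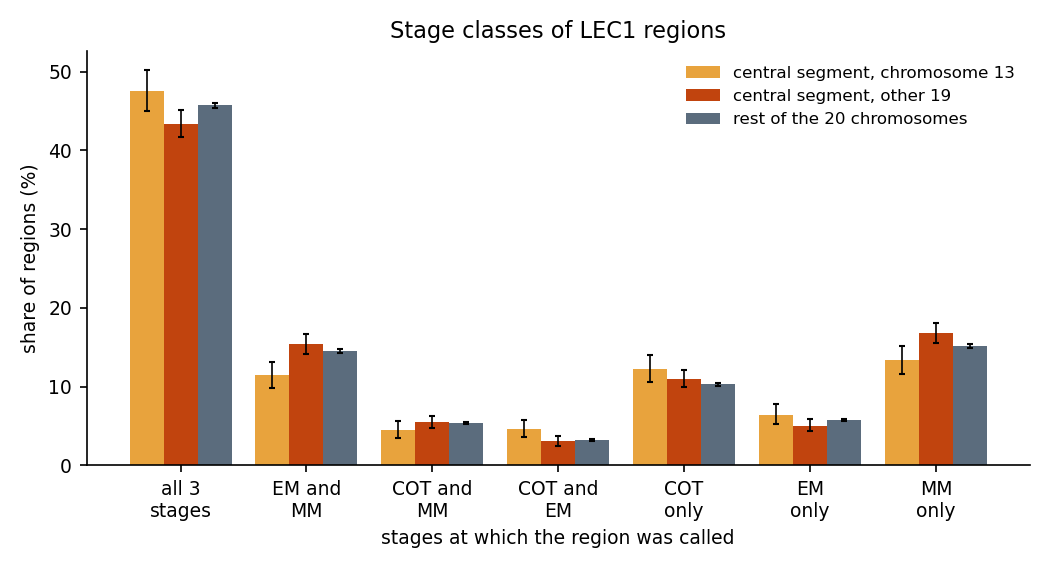
Share of regions (y axis, %) in each of the 7 combinations of stages (x axis), for the central segment of chromosome 13, the central segment of the other 19 chromosomes and the rest of all 20. Bars give shares and lines their exact binomial 95% intervals. Regions of all 3 stages made up 47.5%, 43.4% and 45.7%.

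Central regions called at all 3 stages were ordered by the worst of their 3 places by score, where place 1 is the highest score of a list. The best, at chr13:20574851-20575550, had places 35 (COT), 2 (EM), 16 (MM) and 106 (anti-peptide). The next lay at chr11:20355601-20356350 and had places 236 (COT), 202 (EM), 7 (MM) and 932 (anti-peptide). A region at chr6:28403701-28404450 was in places 412, 151, 132 and 133 in the same order of lists. It stood 262150 bp after the region before it and 1400 bp before the next. A region at chr10:27236151-27236950 (places 328, 545, 86 and 579) had 220650 bp without a region after it and 11550 bp before it. The one at chr11:15767251-15767950 had places 681 (COT), 5 (EM), 171 (MM) and 2465 (anti-peptide).

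Central regions missing from at least 1 stage were ordered by their best rank in any 1 list, not by the worst, so the first of a class can stand low in its other list. The first of EM and MM lay at chr8:19551851-19552350, with places 544 (EM) and 7565 (MM) and an anti-peptide peak in place 3106. The first of COT and MM, at chr19:30327901-30328350, had places 21050 (COT) and 6768 (MM) and no anti-peptide peak. The first of COT and EM, at chr8:22644401-22644650, had places 12039 (COT) and 39505 (EM) and no anti-peptide peak. Of regions called once, the best at COT was chr19:30244651-30244900, with place 10105 and an anti-peptide peak in place 44554. The best at EM was chr11:15529651-15529900, with place 20347 and no anti-peptide peak. The best at MM was chr3:23704801-23705250, with place 11466 and an anti-peptide peak in place 31061.

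Widths were close to those of the rest. The median was 350 bp for central regions and 350 bp for the rest, with quartiles of 200 and 450 bp in both. The mean was 355 ± 192 bp for central regions and 363 ± 203 bp for the rest (SD over 4765 and 73595 regions), and it was lower for central regions on 16 of 20 chromosomes. Without chromosome 13 the median of central regions was 300 bp and the mean 352 ± 190 bp, against 350 bp and 363 ± 203 bp in the rest of those chromosomes. Mean central widths ran from 320 bp on chromosome 4 to 383 bp on chromosome 6, against 354 to 373 bp in the rest of the chromosomes. Regions over 600 bp made up 8.84% of central regions and 9.42% of the rest. A merged region that joins several stages is wider by construction, and the mean of central regions was 494 ± 175 bp when called at all 3 stages and 171 ± 71.4 bp when called at COT alone.

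The widest central region, at chr7:18178951-18180750, spanned 1800 bp and had places 927 (COT), 2203 (EM), 916 (MM) and 91 (anti-peptide). The widest of the rest spanned 2750 bp. The next were chr11:20371301-20372900, chr13:21344401-21345900, chr19:21554251-21555750 and chr16:21955651-21957050, of 1400 to 1600 bp. All 5 were called at every stage and had an anti-peptide peak. The leading MM peak of the chromosome 11 region was 450 bp wide and in place 18226, while its COT peak was 1600 bp wide and in place 3933. The chromosome 16 region was wide but low in score, at places 30865, 14795 and 28573 at COT, EM and MM.

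In central regions called at all 3 stages, the leading peaks were 352 ± 160 bp wide at COT, 408 ± 175 bp at EM and 430 ± 170 bp at MM (SD over 2127 regions). The corresponding means in the rest were 355, 415 and 441 bp. The MM peak was wider than the COT peak in 66.1% of these central regions and in 67.3% of those of the rest. On chromosome 13 it was wider in 61.7% of central all-stage regions, and on the other 19 chromosomes in 68.2%. Depth and threshold may differ between lists, so widths of different stages are set side by side and are no measure of a change in binding.

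Central peaks ranked near the middle of their lists. As a rank within its own list, on which 100 is the highest score, the median central peak stood at 49.3 (COT), 50.5 (EM), 49.4 (MM) and 49.2 (anti-peptide), against 49.96 to 50.1 for the other peaks of these lists. Without chromosome 13 the central medians were 49.1 (COT), 50.5 (EM), 49.5 (MM) and 48.3 (anti-peptide). The central segment held 3116 peaks of the COT list (6.04%), 3273 of the EM list (5.97%), 3825 of the MM list (5.99%) and 2932 of the anti-peptide list (5.95%). Among the 1000 highest-scoring peaks of each list, those on chromosomes numbered 992 to 996. Of these, 5.34% (4.03 to 6.93) of the COT peaks were central, 5.43% (4.10 to 7.02) of the EM peaks, 6.83% (5.34 to 8.58) of the MM peaks and 5.43% (4.10 to 7.02) of the anti-peptide peaks. The central segment also held the first peak of the anti-peptide list and the second of the EM list.

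The second antibody was set against the first by overlap. Its list came from EM alone, while the regions counted include those not called at EM. An anti-peptide peak overlapped 2757 central regions, 57.9% (56.4 to 59.3), against 58.8% (58.4 to 59.1) of the rest and 58.7% over all regions. This difference of −0.895 points was 0.101 points with the rest weighted to central widths and 0.00247 points with a reciprocal overlap of 50%. Without chromosome 13 the share was 57.6% (55.9 to 59.3) of central regions, against 58.8% (58.4 to 59.2) of the rest, and in the central segment of chromosome 13 it was 58.4% (55.8 to 61.0). By chromosome, the central share was higher than that of the rest on 10 of 20 and lower on 10. It was lowest on chromosome 18, at 46.0% (37.1 to 55.1), had a median of 57.4% and was highest on chromosome 16, at 67.2% (58.0 to 75.6). These were also the chromosomes with the lowest and the highest share of all-stage regions. All-stage regions had an anti-peptide peak more often than the other classes, as given below, so these shares are not independent. In the rest of the chromosomes the peptide share ran from 56.8 to 60.4%.

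The share differed by stage class. Of central regions called at all 3 stages, 90.4% (89.0 to 91.6) had an anti-peptide peak, against 89.1% (88.8 to 89.5) in the rest. For EM and MM without COT it was 61.7% (57.9 to 65.4) of central regions and 58.5% of the rest, and for COT and MM without EM 45.9% of central regions and 49.8% of the rest. For COT and EM without MM it was 33.5% (26.4 to 41.2) of central regions and 39.2% of the rest. Regions of 1 stage had the fewest, with 11.3% (8.75 to 14.3) of central COT regions (14.4%, 13.6 to 15.2, in the rest), 18.0% of central EM regions (19.6% in the rest) and 18.9% of central MM regions (19.6% in the rest). The intervals overlapped in all 7 classes, with chromosome 13 and without it.

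By width, an anti-peptide peak lay over 15.8% (13.9 to 17.8) of central regions of 100 to 200 bp and 96.9% (94.8 to 98.3) of those over 600 bp, against 17.2 and 98.1% in the rest. Between these, 43.9% of central regions of 250 to 300 bp and 74.4% of those of 350 to 400 bp had a peptide peak, against 44.3 and 74.4% in the rest. At 450 to 600 bp the share was 95.2% (93.8 to 96.4) of central regions and 92.6% (92.2 to 93.0) of the rest, the single one of the 5 widths at which the intervals did not overlap. Without chromosome 13 it was 96.0% (94.3 to 97.3) of central regions and 92.7% (92.3 to 93.1) of the rest, again the single such width.

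**Figure D5:**
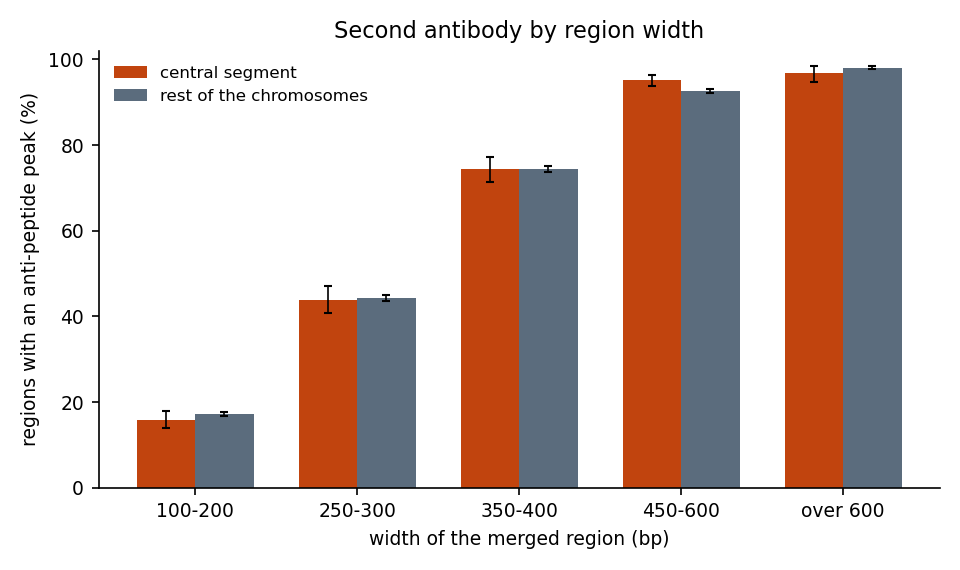
Share of regions with an anti-peptide peak (y axis, %) by width of the merged region (x axis, bp), for the central segment and the rest of the chromosomes. Bars give shares and lines their exact binomial 95% intervals. The central bar is 15.8% for the narrowest and 96.9% for the widest regions, against 17.2 and 98.1% in the rest.

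Of the 2127 central regions called at all 3 stages, 205 had no anti-peptide peak. The best placed lay at chr5:22212901-22213400, 500 bp wide, with places 4699 (COT), 508 (EM) and 5079 (MM). The next were at chr8:20643251-20643750 (13495, 4367 and 5584) and at chr4:20946951-20947400 (15395, 2457 and 7007). In all 3, listed by stage in the same order, the EM place was better than the places at COT and MM. Conversely, 153 of 2932 central anti-peptide peaks, 5.22% (4.44 to 6.09), lay over no region of any stage, against 5.46% (5.25 to 5.67) in the rest. Their median width was 150 bp, and the highest-scoring were in place 17595, at chr6:21557751-21558450, and in place 26037, at chr15:20738901-20739350.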

How the data were processed

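The authors deposited 4 peak lists, 3 by stage with the anti-recombinant antibody and 1 from early maturation with the anti-peptide antibody. The submitters' processing notes name Bowtie 0.12.7 and SAMtools 0.1.19. The peak caller and threshold, and any pooling of replicates, were not stated in the sources used here. The score in the deposited lists is the authors' own, has no stated scale, and served only to rank peaks within a list. All starts fall on steps of 50 bp, and an end was read as the last base. Stage peaks overlapping by 1 bp were merged, and 399 scaffold regions were left out. Distances are edge to edge. Regions, limits and lists were chosen with earlier results of these data known. Named regions follow a rule of place, width, stage class, isolation, clustering, peptide overlap and nearness to the limits unless stated. No test was made, as each group has 1 list. The merging was tested on simulated data with 20000 positions. Python 3.11.15, pandas 2.3.3 and scipy 1.17.1 were used. Alternatives were other windows, overlaps, list lengths and distances, width weighting, equally weighted chromosomes and leaving out chromosome 13. A planned description of sequences was not made, because no genome of the build was used here.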

Additional observations from a re-analysis of the deposited data

How the results depend on the processing

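Each of 12 summary values was recomputed under the settings that apply to it, 6 to 12 of 13 in all. Of the resulting values, 75 lay within the 95% interval of the reported value without a reversal and 22 lay outside it without one. Another 5 changed sign, of which 3 lay within the interval. A reversal was looked for only in differences from the rest and in the density ratio. Other shares, widths, gaps and ranks were judged by the interval alone, so a rank that crossed the middle of its list was not counted as reversed. The settings without chromosome 13 were chosen after seeing the data. The density ratio was 0.274 between 45 and 55% of the length, 0.251 as a mean over chromosomes, 0.475 against the neighbouring segments, 0.190 without chromosome 13 and 0.372 with both. The share called at all stages was 34.9% with reciprocal overlap and 42.3% with the higher-scoring 50% of each list. Its difference, central minus rest, was −1.05 percentage points, but 0.566 with the higher-scoring 50% and 0.0425 with the rest weighted to central widths. Without chromosome 13 it was −2.29, and −0.924 with that weighting. Width depends on the number of stages joined, so the weighting can itself take out part of this difference. The peptide share was 50.6% with reciprocal overlap and 64.3% with lists of equal length; its difference from the rest, −0.895 points, became 0.00247 with reciprocal overlap and 0.101 with width weighting. The median width was 450 bp in the higher-scoring 50%. The median gap between consecutive central regions, 5400 bp, was 4500 bp between 45 and 55% of the length, 3800 with reciprocal overlap, 14250 in the higher-scoring 50%, 6850 with equal lengths, 13462.5 as a mean over chromosomes and 9150 without chromosome 13. The difference in neighbours within 1 kb, −2.99 points, was −0.695 between 45 and 55%, −1.41 between midpoints, −5.37 as a mean over chromosomes and −5.94 without chromosome 13, and 0.169 against the neighbouring segments. The rank of central MM peaks was 51.4 in the higher-scoring 50% and 51.3 with equal lengths. The cause of these shifts was not tested. No paired analysis was possible because there is 1 list for each group of replicates, and no replicate could be left out for the same reason.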
